A study of Mus musculus with 4 samples.

Results

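The Notch family examined here comprised the 4 mouse receptors Notch1, Notch2, Notch3 and Notch4 and the ligands Dll1, Dll4, Jag1 and Jag2, 8 genes chosen by symbol. All 8 were among the 24873 genes listed in the table of normalized counts, and all 8 were among the 20485 genes that were tested, which averaged 10 normalized counts or more. RNA of cerebral cells described as CD31+CD45- (endothelial surface marker present, leukocyte marker absent) was sequenced in 4 libraries, 2 of control and 2 of tamoxifen-treated mice, and 3 mice were pooled for each. All mice carried VE-cadherin cre/ERT2, a tamoxifen-activated recombinase under the promoter of the endothelial cadherin gene, together with Mgp fl/fl, in which recombination removes Mgp (Cdh5cre;Mgpflox/flox in the sample labels, which name the cells by tdTomato). Tamoxifen was given from 10 weeks of age, as 5 daily doses of 75 mg/kg with cells taken on day 9, whereas control mice had none, so that tamoxifen itself and Mgp deletion cannot be told apart. Columns lettered C hold control values. The letter A stands in no label and was taken to mean AVM, for arteriovenous malformation, and hence the tamoxifen group.

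Notch receptors are single-pass membrane proteins that bind Delta-like or Jagged ligands on a neighboring cell. Binding exposes the receptor to cleavage by ADAM proteases and then by gamma-secretase, and the released intracellular domain joins the DNA-binding protein RBPJ and Mastermind coactivators to switch on Hes and Hey genes. In vessels, Notch1 and Notch4 with Dll4, Jag1 and Jag2 act in endothelial cells and set arterial identity and sprouting, Notch3 is the main receptor of pericytes and smooth muscle cells, and Notch2 and Dll1 are widely used in other tissues and in progenitor cells.

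The 4 libraries held between 35387438 and 49799321 reads on listed genes. Mgp, the deleted gene, stood at 1094 and 1352 normalized counts without tamoxifen and at 945 and 909 with it, a log2 fold change of -0.39 that was not called (limma, adjusted p = 0.0986) and became 0.079 when libraries were rescaled to equal totals. Of 13 endothelial marker genes, 13 were called lower, with a summed level of 1272580 to 1300500 normalized counts in the control and 114693 to 224940 in the tamoxifen libraries and none at 0. Tamoxifen library 2 held 51.0% of the summed endothelial level of tamoxifen library 1. Markers of astrocytes (8 of 8 higher), neutrophils (7 of 7), pluripotent cells (9 of 9), fibroblasts (6 of 6) and oligodendrocyte lineage cells (8 of 9), and the gene of CD45, Ptprc, were called higher. Over all tested genes 28.6% were called higher and 16.0% lower. In bulk RNA, fewer cells of a type and less RNA per cell cannot be told apart. All fold changes below compare tamoxifen with control libraries on log2(normalized count + 1), and "called" means an adjusted p under 0.05 with limma and a log2 fold change over 1 in size. The sequences before the start sites of Notch4, Dll4 and Notch3 are shown as those of a receptor and a ligand that fell nearly as far as the endothelial markers and of the receptor that rose most. The windows of Jag2, Jag1 and Notch1 (RefSeq start 12841 bases inside), and 1 window of Dll1 (1049 bases inside), lie inside the annotated gene and are not shown. They are RefSeq promoter sequences (table build GRCm38.p6) placed on GRCm39 by exact match, 5′ to 3′ on the gene's strand, cut where the GENCODE gene begins, with CG dinucleotides in capitals.
Notch4, chr17:34783019-34783219, plus strand: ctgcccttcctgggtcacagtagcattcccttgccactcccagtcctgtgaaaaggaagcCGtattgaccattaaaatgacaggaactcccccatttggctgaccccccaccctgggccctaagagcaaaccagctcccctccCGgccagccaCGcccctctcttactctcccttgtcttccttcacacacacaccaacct
Dll4, chr2:119156015-119156169, plus strand: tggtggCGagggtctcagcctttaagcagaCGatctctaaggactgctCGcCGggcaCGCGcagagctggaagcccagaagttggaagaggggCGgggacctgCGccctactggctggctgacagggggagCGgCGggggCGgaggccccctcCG
Notch3, chr17:32385894-32386114, minus strand: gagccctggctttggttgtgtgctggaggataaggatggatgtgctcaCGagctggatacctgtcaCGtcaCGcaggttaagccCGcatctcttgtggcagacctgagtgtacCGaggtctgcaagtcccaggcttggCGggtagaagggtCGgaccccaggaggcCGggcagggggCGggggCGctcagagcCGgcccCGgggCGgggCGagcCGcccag
The 201 bases shown for Notch4 held 3 CG dinucleotides, the 155 bases of Dll4 held 12 and the 221 bases of Notch3 held 15. Over the whole window of 250 bases before the RefSeq start, Notch4 had 4 CG dinucleotides, below the median of 6 over 32851 promoters, and the other members had from 13 to 54, with the highest number for Jag2. The highest numbers, 54 and 34, belonged to Jag2, which fell, and Notch2, which rose. The letters TGGGAA (the core bound by RBPJ) on either strand were in 0 of the 9 windows of the 8 members and in 21.6% of all promoters. CCGGAA, a sequence bound by ETS factors (which include endothelial regulators), was in none of these windows and in 12% of all promoters. Other sequences bound by ETS factors were not searched, so their absence is not shown. The letters GGAA, a part of CCGGAA, stand in the bases shown for Notch4 and Dll4. GGCGCC, found in BMP-responsive elements, was in 1 window of Dll1 and in 9.59% of all promoters. TATAAA was in none of the members' windows and in 12.4% of all promoters. The Dll1 match was the only match of the 4 motifs in the 9 windows, so that no matches overlapped, and it lay in the Dll1 window inside the annotated gene.

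The family split under tamoxifen. Of the 8 members, 7 were called, 5 lower (Jag2, Dll4, Notch4, Jag1, Notch1) and 2 higher (Notch3, Notch2), while Dll1 was not called. Over all tested genes 44.7% were called, 16.0% lower and 28.6% higher. By adjusted p alone the members called were also 7, against 58.9% of all genes. The median log2 fold change was -1.49 over the 8 members and 0.05 over all tested genes. All 8 had groups that did not overlap, 6 lower and 2 higher, as had 82.3% of all tested genes (39.2% lower and 43.1% higher). Count-based tests on the recovered reads also called 7 members, with edgeR calling 45.1% and DESeq2 42.7% of all genes. Rescaling to equal totals shifted the median of all genes by 0.47 and quantile normalization by -0.28, and under these the directions of the 7 called members stayed as given, whereas Dll1 turned to 0.12 under the first. The members called were then 6 (44.1% of all genes) and 7 (49.5%, with Dll1 gained and Notch1 lost). With either tamoxifen library left out, fewer members were called. The share of all tested genes called in those fits is not given here, so this loss is not read as a result about the members. Notch1, Notch4, Dll4 and the target gene Hey1 are among the marker genes that the study chose to display from these libraries, so that their direction is not independent evidence.

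**Figure D1:**
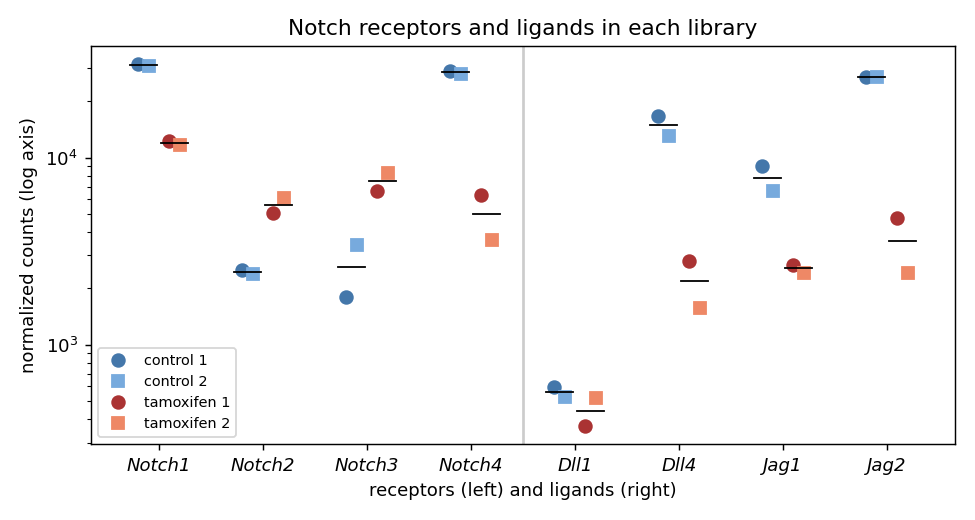
Normalized counts (log axis) of the 8 members in each library, with circles and squares for libraries 1 and 2 of a group and a black line at each group mean. Notch1, Notch4, Dll4, Jag1 and Jag2 lay lower and Notch2 and Notch3 higher in both tamoxifen libraries, while the Dll1 values of control 2 (527) and tamoxifen 2 (521) were nearly equal and its direction turned with rescaling to equal totals.

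Notch4, the receptor most restricted to endothelium, lies on chromosome 17 from 34783220 to 34807477 (GRCm39, GENCODE M39, as for all positions here). It stood at 29081 and 27979 normalized counts without tamoxifen and at 6337 and 3648 with it. The control libraries were close to each other, and tamoxifen library 2 was the lower of its group. The fold change was -2.57 on the log2 scale (standard error 0.26, limma with Benjamini-Hochberg adjustment, adjusted p = 0.000147), a ratio of means of 0.175. Notch1, the receptor that endothelial cells share with many progenitor cells, lies on chromosome 2 from 26347915 to 26406675. It stood at 31641 and 30919 normalized counts without tamoxifen and at 12264 and 11719 with it. Both groups were tight, and no value of one came near the other. Its log2 fold change was -1.38 (standard error 0.19, limma, adjusted p = 0.000535). This size depended on the scaling, with -0.91 at equal library totals and -0.69 with quantile normalization, both under the size limit of 1.

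Notch3, on chromosome 17 from 32339794 to 32385893, rose most among the members. It stood at 1793 and 3426 normalized counts without tamoxifen and at 6623 and 8326 with it. The control libraries differed widely, but both lay below both tamoxifen libraries. Its rise was 1.58 on the log2 scale (standard error 0.29, limma, adjusted p = 0.00242). With tamoxifen library 1 left out it was 1.75 (adjusted p = 0.115) and with tamoxifen library 2 left out 1.42 (adjusted p = 0.158), so that the call needed both. The 12 mural marker genes (pericytes and smooth muscle) moved with control library 2 in the same way, since their summed level was 33760 and 63196 normalized counts in control libraries 1 and 2 and 43951 and 86980 in tamoxifen libraries 1 and 2. Of these 12 genes, 3 were called higher (Des, Cnn1 and Abcc9), none lower, and none was at 0, so that the share called higher did not exceed the 28.6% over all tested genes. Notch3 equalled 5.31% and 5.42% of the summed mural level in the control and 15.1% and 9.57% in the tamoxifen libraries. Measured against Pdgfrb alone, the receptor of pericytes, it came to 47.1% and 43.6% in the control and 96.8% and 61.8% in the tamoxifen libraries. The ratio to the mural genes was thus even between the control libraries, which differed in Notch3 itself, and higher in both tamoxifen libraries. These ratios were chosen after the values had been seen, and no test was run on them, since an exact permutation test of 2 libraries against 2 cannot give a p below 0.33.

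Notch2, on chromosome 3 from 97920800 to 98057677, acts in many cell types, among them mural cells, glia and B cells. It stood at 2518 and 2383 normalized counts without tamoxifen and at 5039 and 6078 with it. Values within each group were close, and the groups lay far apart. Its rise was 1.18 on the log2 scale (standard error 0.16, limma, adjusted p = 0.000552), and it was called in each of 15 alternatives, from 1.04 to 1.65. Marker lists of astrocytes and lymphocytes rose beside it, with summed astrocyte levels of 30327 to 36376 normalized counts in the control and 151030 to 311951 in the tamoxifen libraries (8 of 8 genes higher, none at 0), and summed lymphocyte levels of 65.7 to 91.4 and 1861 to 2575 (5 of 5 tested genes higher, with Cd3e and Cd3d at or under 3 reads in both control libraries). Their part in the rise of Notch2 was not tested.

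Dll4, the ligand of arterial and sprouting endothelium, lies on chromosome 2 from 119156170 to 119166443. It stood at 16664 and 13104 normalized counts without tamoxifen and at 2797 and 1580.1 with it. Its log2 fold change was -2.81 (standard error 0.27, limma, adjusted p = 0.000119). Jag2, on chromosome 12 from 112871421 to 112893437, stood at 27095 and 26887 normalized counts without tamoxifen and at 4765 and 2410.5 with it. It showed the largest fall of the family, with -2.99 (standard error 0.30, limma, adjusted p = 0.000131) and a ratio of means of 0.133. In both genes the tamoxifen libraries differed from each other as the endothelial markers did. Jag1, a Jagged ligand that endothelial, mural and astrocytic cells can all express, lies on chromosome 2 from 136923373 to 136958693. It stood at 8976 and 6632 normalized counts without tamoxifen and at 2685 and 2428 with it. Its log2 fold change was -1.60 (standard error 0.19, limma, adjusted p = 0.000262), and without tamoxifen library 2 it was -1.52 (adjusted p = 0.0601). Neither Jagged gene was higher in a tamoxifen library under any of the 15 alternatives, where the log2 fold change ranged from -1.81 to -1.12 for Jag1 and from -3.48 to -2.50 for Jag2.

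Dll1, a Delta ligand of progenitor and lymphoid tissues, lies on chromosome 17 from 15587276 to 15597134 and was the least abundant member. It stood at 593 and 527 normalized counts without tamoxifen and at 367 and 521 with it, from 339 to 725 reads. Tamoxifen library 2 almost reached the controls. The log2 fold change was -0.35 with a 95% interval from -0.93 to 0.22 (limma, adjusted p = 0.252). Its direction turned with the scaling, at 0.12 with equal library totals and -1.09 with quantile normalization, where it was called. Of 7 neural progenitor markers, 5 were called higher and Nes, also an endothelial gene, lower, and Neurog2 was at 0 in both controls. Nes made up most of the summed level. The other 6 genes summed to 1085 and 1441 normalized counts in control and 11848 and 18189 in tamoxifen libraries. Their part in the level of Dll1 was not tested. Fam120b overlaps Dll1 on the opposite strand, with 2083 and 1792 normalized counts in control libraries and 1398 and 1639 under tamoxifen, and the strand setting of the counting was not given, so that the Dll1 level is uncertain.

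**Figure D2:**
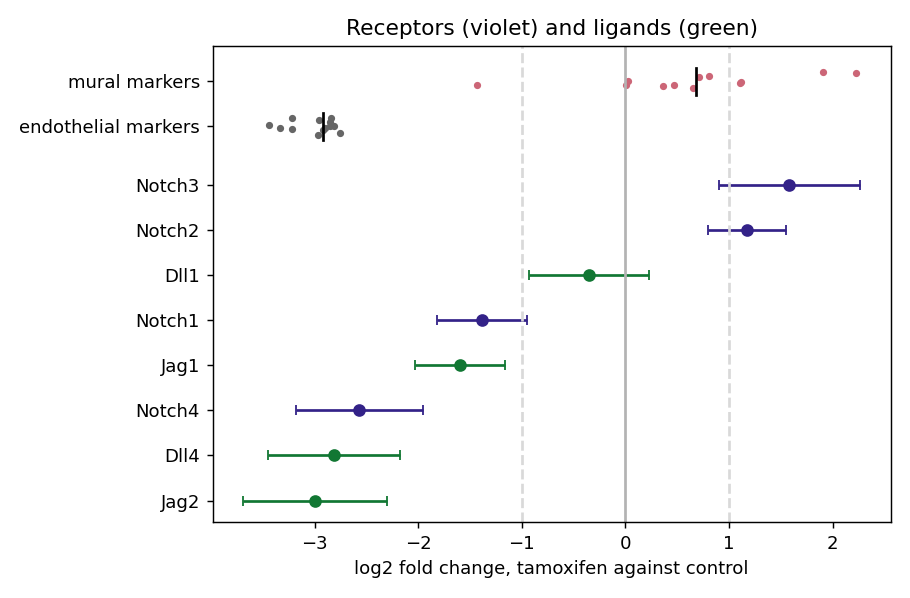
Log2 fold change of each member with its 95% interval from limma (receptors violet, ligands green), with the 13 endothelial and 12 mural marker genes as points and their medians as black lines, and dashed lines at a size of 1. Jag2 (-2.99) and Dll4 (-2.81) lay at the endothelial median (-2.92), whereas Notch2 and Notch3 lay above 1 and above the mural median (0.68), and the interval of Dll1 crossed 0.

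The members were also set against the endothelial genes of the same library, because such a ratio does not depend on how libraries are scaled against each other. The log2 level of Jag2 minus the mean log2 level of the 13 endothelial genes was -1.57 in control library 2 and -1.52 and -1.54 in the tamoxifen libraries, with control library 1 the highest. The 4 values spanned 0.07, and of the 20485 tested genes 1 had a smaller span, a count that was made after the values had been seen. Dll4 had -2.20 and -2.61 in the control and -2.28 and -2.15 in the tamoxifen libraries, so that its groups overlapped. Notch4 had -1.40 and -1.52 in the control and -1.10 and -0.94 in the tamoxifen libraries. The values spanned 0.46 for Dll4 and 0.58 for Notch4, more than for 11 and 13 of the 13 endothelial genes, and the Notch4 groups did not overlap. The differences were 0.01 for Jag2 (95% interval -0.92 to 0.94), 0.19 for Dll4 (-0.80 to 1.18) and 0.43 for Notch4 (-0.47 to 1.34). None of these was called, which does not show that a difference is absent. The intervals of this fit, here and below, are set by the spread shared across tested genes. They therefore do not measure the spread of Jag2, Dll4 or Notch4 itself, and do not bound the difference of a gene. Without tamoxifen library 1 the Notch4 difference was 0.52 (limma, adjusted p = 0.0240), past the p threshold but under the size limit.

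Notch1 and Jag1 fell less than the endothelial genes. Relative to these, Notch1 went from -1.28 and -1.37 in the control to -0.15 and 0.74 in the tamoxifen libraries, a difference of 1.62 (95% interval 0.76 to 2.48). Jag1 went from -3.09 and -3.59 to -2.34 and -1.53, a difference of 1.41 (0.39 to 2.43). All 13 endothelial genes fell more than Notch1, Jag1 and Notch4, 12 fell more than Dll4 and 4 fell more than Jag2. Relative to the endothelial genes, Notch3 differed by 4.59 (3.56 to 5.61), Notch2 by 4.18 (3.14 to 5.22) and Dll1 by 2.65 (1.31 to 3.99). In this fit 5 of 8 members were called (Notch1, Notch2, Notch3, Dll1 and Jag1), and 87.9% of all tested genes were called, 87.8% higher. All genes share the deviation of the endothelial mean in this fit, which makes its p-values too small and ties its intervals to each other. Without control library 1, Notch1 was no longer called (adjusted p = 0.119), nor without control library 2 (adjusted p = 0.146). The same held for Jag1, with adjusted p = 0.223 without control library 1 and 0.396 without control library 2, and without tamoxifen library 2 its difference of 1.00 fell just under the size limit. For Dll1 the adjusted p was 0.0882 without control library 1 and 0.119 without control library 2.

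**Figure D3:**
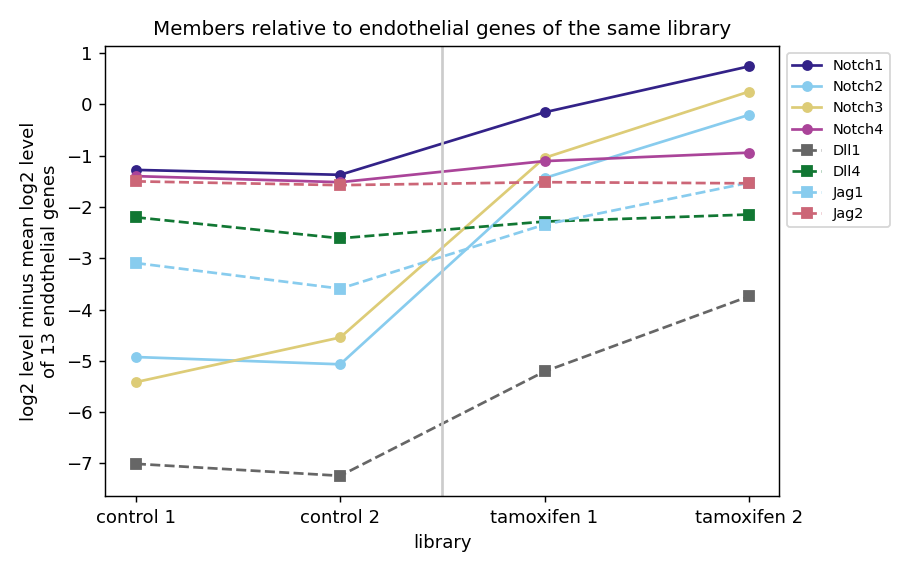
Log2 level of each member minus the mean log2 level of 13 endothelial genes in the same library (receptors as solid, ligands as dashed lines, which only join the points of a gene). The 4 values spanned 0.07 for Jag2, 0.46 for Dll4 and 0.58 for Notch4, which lay somewhat higher in both tamoxifen libraries. Notch2, Notch3, Notch1, Jag1 and Dll1 also lay higher there, by more than 1 between the group means.

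The 2 tamoxifen libraries separated the members in the same way, although this comparison has no replicates. Tamoxifen library 2 held 43.5% to 61.1% of the level of tamoxifen library 1 for the 13 endothelial genes, with a median of 49.7%. It held 50.6% for Jag2, 56.5% for Dll4 and 57.6% for Notch4, all within that range. By contrast, it held 95.6% for Notch1 and 90.5% for Jag1, above each of these 13 genes. The 7 arterial markers, also endothelial genes, ranged from 34.0% (Gkn3) and 39.0% (Sema3g) to 295% (Gja5, with few reads), with 85.5% for their sum, 85.6% for Unc5b and 136% for Gja4, so that some of them held their level as Notch1 and Jag1 did. This list was read here after the values had been seen. For Notch2, tamoxifen library 2 held 121%, for Notch3 126% and for Dll1 142%. The summed mural and astrocyte levels were 198% and 207% of those of library 1, and the summed neutrophil level was 74.5%. The part of these cell types, and of arterial endothelial cells, in the levels of Notch1 and Jag1 was not tested.

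Pairs of related members were compared directly, as 3 differences of log2 level within a library. Notch1 minus Notch4 was 0.12 and 0.14 in the control and 0.95 and 1.68 in the tamoxifen libraries, a difference of 1.18. Its standard error was 0.32 with the errors of both genes taken as independent (t test on limma errors, adjusted p = 0.00692 over 3 pairs). Jag1 minus Jag2 was -1.59 and -2.02 in the control and -0.83 and 0.01 in the tamoxifen libraries, a difference of 1.40 (standard error 0.35, adjusted p = 0.00673). Dll1 minus Dll4 was -4.81 and -4.63 in the control and -2.93 and -1.60 in the tamoxifen libraries, a difference of 2.46 (standard error 0.37, adjusted p = 0.000576). In each pair the groups did not overlap, with no share over other pairs of genes given beside it, and the gene named first fell less than its partner. This way of taking the error was added after the values had been seen. Both genes of a pair come from the same libraries, so that their errors need not be independent. In the fit designed for these pairs, which shares the deviation of the reference gene among all genes, the standard errors were larger, at 0.36, 0.53 and 0.66 in the same order. The adjusted p there was 0.00126, 0.0107 and 0.000273 (limma), and 84.3%, 87.4% and 86.1% of all tested genes were called. There, no pair kept its call without control library 1 (adjusted p from 0.0770 to 0.252) or without control library 2 (0.0506 to 0.398). Without tamoxifen library 2 the differences were 0.82 for Notch1 and 0.98 for Jag1, under the size limit.

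The make-up of the family was then compared per length, as normalized counts per kb of exon. In the control libraries, Dll4 had the highest level or the level next to it, with 4222 and 3320.0 per kb, together with Jag2 at 3820.5 and 3791 and Notch4 at 3284 and 3160.1. Notch1 followed with 2223 and 2173 and Jag1 with 1506 and 1113. Below them were Notch2 at 224 and 212, Notch3 at 199 and 380.2, and Dll1 at 120 and 106 per kb. Dll4 and Jag2 overlapped, as did Notch2 and Notch3, while Notch4 lay below Dll4 and Jag2 in both control libraries. In the tamoxifen libraries Notch1 had 862 and 823 per kb and Notch3 735 and 924, and these were the highest members, with overlapping values. This order depended on the length used. Notch1 lay above Notch3 in both tamoxifen libraries with the longest transcript as the length, or with no division by length. Notch4 fell from 3284 and 3160.1 to 716 and 412 per kb, a range that Notch2 (447 and 540), Dll4 (709 and 400.3), Jag1 (451 and 408) and Jag2 (672 and 340) shared. Dll1 stayed lowest at 74.1 and 105. By rank among the tested genes with an exon length, Dll4 went from 252 and 376 in the control to 2020 and 3593 in the tamoxifen libraries, while Notch3 rose from 6686 and 4376 to 1944 and 1186.

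As a share of the 4 receptors per kb, Notch1 and Notch4 together made up 91.4% ± 2.03 (SD, n = 2) without tamoxifen and 51.5% ± 8.05 (SD, n = 2) with it. Notch4 alone went from 54.4% ± 1.45 to 20.6% ± 7.54, while Notch1 went from 37.1% ± 0.579 to 30.9% ± 0.508. Notch3 went from 4.89% ± 2.17 to 30.4% ± 5.37 and Notch2 from 3.67% ± 0.140 to 18.1% ± 2.68. The receptor RNA of the tamoxifen libraries was thus spread over all 4 genes. Bulk RNA does not show in which cells, so the shares do not measure a change within endothelial cells. Among the 4 ligands, Jag2 went from 42.5% ± 4.24 to 31.2% ± 5.76 and Dll4 from 41.8% ± 2.697 to 34.6% ± 3.71. Jag1 went from 14.5% ± 1.57 to 28.1% ± 6.28, and Dll1 from 1.26% ± 0.0272 to 6.14% ± 3.18 (SD, n = 2 throughout). The groups did not overlap for any of these shares, but neither did the levels of 82.3% of all tested genes. The shares of a family also add up to a fixed whole, so they are not separate observations. The summed receptors had 5930.2 and 5924 per kb in the control and 2759.9 and 2699 in the tamoxifen libraries, and the summed ligands 9668 and 8330.4 against 1905 and 1253. Receptors per ligand therefore went from 0.613 and 0.711 to 1.45 and 2.15. The shares depended on the length used. With no division by length, Notch1 and Notch4 had 48.2% and 44.0% of the receptors in the control libraries, the reverse of their order per kb. The control share of Dll4 was then 29.5%, and 36.5% with the longest transcript. Notch1 and Notch4 together had 92.2% and 93.2% of the receptors in control libraries under these 2 choices. In the tamoxifen libraries, Notch1 had 40.5% and 39.4% and Notch3 21.9% and 28.0% with no division by length. With the longest transcript, Notch1 had 36.5% and 36.4% there and Notch3 23.1% and 30.4%.

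**Figure D4:**
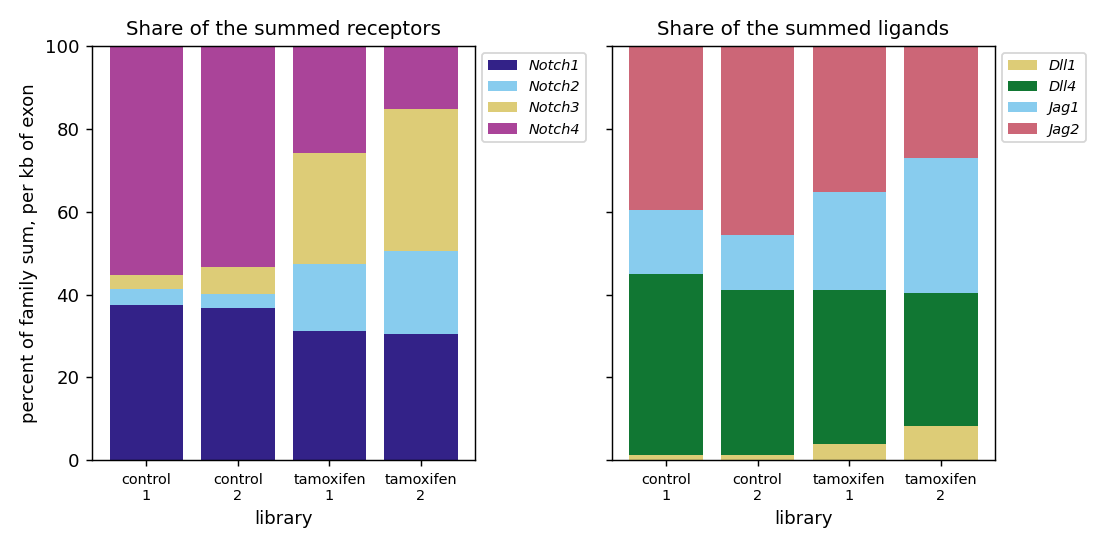
Share of each receptor (left) and each ligand (right) in the family sum per kb of exon, as stacked bars for the 4 libraries. Notch1 and Notch4 filled 92.9% and 90.0% of the receptor bar without and 57.2% and 45.8% with tamoxifen, where Notch2 and Notch3 took up the rest, whereas the ligand bars shifted less, toward Jag1 and Dll1.

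Other genes of the pathway were taken from a fixed list of 46 genes in 7 roles. Of these, 11 were called higher and 12 lower, and 23 were not called. Over all tested genes 44.7% were called, 28.6% higher and 16.0% lower, which are the shares to set beside each role below. The median log2 fold change was -0.47 against 0.05 over all tested genes. With either tamoxifen library left out fewer pathway genes were called, with no share of all tested genes given beside them. Of 8 genes that add sugars to Notch or shed it, 4 were called lower and none higher, with Mfng, a fringe glycosyltransferase, at -2.32 and Furin, the convertase that matures the receptor, at -1.32 (limma, adjusted p = 0.000129 and 0.000715). The size of Furin was under 1 with both other scalings, -0.85 at equal library totals and -0.90 with quantile normalization. Of 7 gamma-secretase genes, 2 were called lower and 2 higher, with Psen2, a catalytic subunit, at -1.42 and Aph1c, a subunit with few reads, at 3.08 (from 11 and 8 reads to 95 and 169). Among 4 ubiquitin ligases that activate ligands, Mib2 was called lower at -1.11 and Neurl1a higher at 1.52 (0.38 with quantile normalization). At equal library totals Psen2 had -0.95 and Mib2 -0.64, under the size limit. Among 5 other ligand-like genes, 3 were called higher and 1 lower. Dll3, a Delta protein that does not activate Notch in neighboring cells, rose from 5.48 and 8.76 to 92.1 and 107 normalized counts, whereas Egfl7, a secreted endothelial protein, fell by 3.03 on the log2 scale.

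In the nucleus, Rbpj, the DNA-binding partner of all 4 receptors, was the 1 gene of 8 called higher. It stood at 1716 and 1477 normalized counts without tamoxifen and at 5449 and 4543 with it, a log2 fold change of 1.64 (standard error 0.17, limma, adjusted p = 0.000148). The coactivator gene Maml2 was the 1 called lower, at -1.14 (-0.66 after rescaling to equal totals). Of 8 genes of turnover and dampening, Dtx1, a ubiquitin ligase of the receptor and itself a Notch target in lymphoid cells, had 3.47, and Numb, an inhibitor of Notch in dividing progenitors, had -1.41 (-0.94 after rescaling to equal totals). The 6 first targets did not move together. Hey1, an arterial endothelial target, fell from 5824 and 6293 to 1522 and 1249 normalized counts, a log2 fold change of -2.13 (limma, adjusted p = 5.03e-05), and Hes1 fell by 1.48 on the log2 scale. Hes5, a target of neural progenitors, rose from 9.59 and 26.3 to 158 and 365 normalized counts, a log2 fold change of 3.83 (adjusted p = 0.00153). Hey2 was called higher at 1.12 (adjusted p = 0.0432), but not without control library 1 (0.66), without tamoxifen library 1 (1.53, adjusted p = 0.155), without tamoxifen library 2 (0.71), without the mean-variance trend (adjusted p = 0.120), without the filter on low counts (adjusted p = 0.0811) or with quantile normalization (0.15). Heyl, a target in mural cells, had 0.96 and Nrarp, a feedback inhibitor, 0.78, neither called, although both passed at equal library totals (1.43 and 1.25). Calls of Aph1c, Neurl1a, Dtx1 and Hes5 needed both tamoxifen libraries. Without tamoxifen library 1 their log2 fold changes were 3.20, 1.33, 3.89 and 4.43 (adjusted p from 0.0525 to 0.212), and without tamoxifen library 2 they were 2.97, 1.71, 3.05 and 3.23 (0.0630 to 0.149).

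**Figure D5:**
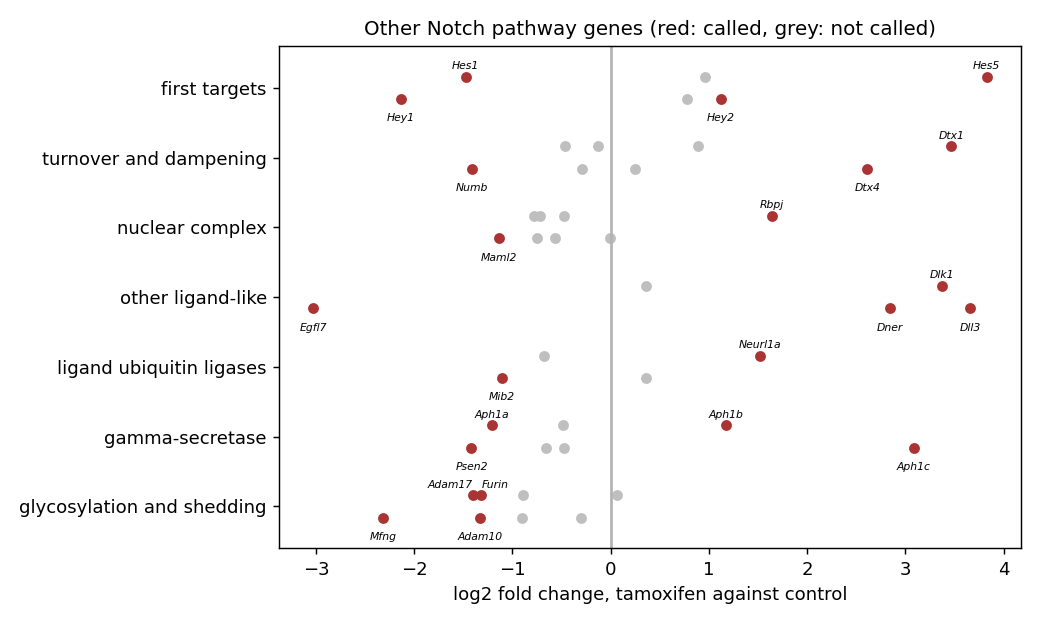
Log2 fold change of 46 other Notch pathway genes by role, with genes called by limma in red and named, and the rest in grey. Points of the glycosylation and shedding group lay at or below 0.06, while the other groups held genes on both sides of 0.

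Genes with a profile most like a member were looked for among tested genes averaging 1000 normalized counts or more, by the distance between log2 values centred on each gene's mean over the 4 libraries. Nearest to Jag2 were Gbp3 (distance 0.05) and Rasip1 (0.05), nearest to Notch4 Abhd2 (0.03) and Stab1 (0.06), and nearest to Dll4 Trim34a (0.07) and Map3k8 (0.08). Notch1 lay nearest to Caml (0.03) and Fam171a1 (0.03), and Jag1 to Spry1 (0.08) and Fam117b (0.09). For Notch3 they were Arhgef17 (0.05) and S1pr3 (0.12), for Notch2 Ckap5 (0.05) and Ehbp1 (0.08), and for Dll1 Dchs1 (0.04) and Nrep (0.06). With 4 libraries many genes lie close to one another. Of 7787 genes, 145 lay within 0.2 of Notch1 and 52 within 0.2 of Jag2, but 3 within 0.2 of Notch3.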

How the data were processed

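RNA of CD31+CD45- cerebral cells was sequenced in 2 control and 2 tamoxifen libraries, prepared with a stranded mRNA kit. Per the authors, mapping and gene quantification used STAR 2.7.10a on GRCm39, and normalization used DESeq2 1.36.0 after genes with few reads had been dropped. The annotation release, strand setting and low-count limit were not given in the sources used here. Each deposited value is a normalized signal, the reads of a gene over a factor common to its library. The smallest step of each column gave back whole reads for 100% of values (within 0.001 of a whole number). Per the labels, samples were grouped by treatment.

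limma 3.58.1 in R 4.3.3 (lmFit, eBayes with a mean-variance trend) was run on log2(normalized count + 1) for 20485 genes, with Benjamini-Hochberg (BH) adjustment over all of them and the study's cut-offs. The fit was run on simulated data with the same spread for all genes and few changed genes. The libraries here differ from that setting, so that run does not test the calls. Libraries were pooled from 3 mice each, with 2 pools per group. The limma p-values rest in large part on the spread between pools that is shared across genes. They do not measure the spread of a gene's own pools alone, nor that between single mice. Lengths are merged exons of GENCODE M39, found for 24364 genes. Neighbor genes, pathway genes at the extremes of each role and all first targets were named by rule. The members and lists were chosen with earlier results of these data known. Alternatives comprised a filter at a mean of 100 or none, pseudocounts of 0.5 and 5, other scalings, no trend, a replicate block, edgeR 4.0.16, DESeq2 1.42.0 and each library left out. There were 0 columns of other samples. No amino acid sequences were used here.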

Additional observations from a re-analysis of the deposited data

How the results depend on the processing

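The number of members called was 7 with limma (44.7% of all tested genes), with edgeR (45.1%) and with DESeq2 (42.7%) on recovered reads. It was 6 (44.1%) after rescaling to equal totals. With either tamoxifen library left out it was lower, with no share of all tested genes given beside it. With equal library totals and with quantile normalization, the log2 fold change of Notch1 was -0.91 and -0.69 and that of Dll1 0.12 and -1.09, and Mgp turned to 0.079 under the first and Nrarp to -0.24 under the second. Of all calls over tested genes, 64.1% were higher, against 79.7% and 45.6% under these scalings. With 1 library left out, where a lone library is assumed to vary like the other group, Notch3 ranged from 1.12 to 2.05, Jag1 from -1.81 to -1.38 and the number of pathway genes called from 13 to 25 (23 with all libraries).

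Relative to endothelial genes, leaving out 1 library gave 1.17 to 2.07 for Notch1, 1.92 to 3.38 for Dll1, -0.014 to 0.40 for Dll4, 1.00 to 1.82 for Jag1 and -0.027 to 0.047 for Jag2. Jag2 had -0.15 against the median of the endothelial list, and Jag1 1.41 without the trend, no longer called. Among the pairs, Notch1 relative to Notch4 ranged from 0.82 to 1.55, Jag1 relative to Jag2 from 0.98 to 1.82 and Dll1 relative to Dll4 from 1.80 to 3.12, and without the trend the first and the second, at 1.18 and 1.40, were no longer called. The cause of these changes was not tested. With the longest transcript and with no length, the Jag2 share was 49.4% and 53.9% in the control and 37.1% and 39.8% in the tamoxifen libraries.

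Same-numbered libraries share only a number (correlation of their deviations 0.0251 over 20485 genes). With the replicate block 7 members and 23 pathway genes were called, with no share of all tested genes given beside them. This fit leaves each gene almost no spread of its own. Its p-values therefore rest on the spread shared across genes, and the unchanged counts are no sign of stability.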

Other observations

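Annotated genes overlap several members besides Dll1. Gm14207, which overlaps Dll4, had 266 and 303 normalized counts in the control and 54.2 and 46.0 in the tamoxifen libraries, at most 2.91% of Dll4. Gm17276, which overlaps Notch3, reached at most 4.97% of Notch3, and listed genes that overlap Notch1 and Notch2 reached at most 0.319% and 0.683%.

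Among 7 arterial markers that are no members, 5 were called lower and none higher (16.0% and 28.6% of all tested genes), with a median log2 fold change of -1.73, between those of Notch1 and Notch4. Gja4 (-0.45) and Efnb2 (-0.78), a connexin gene and an arterial ephrin gene, were not called and are named because they were the exceptions, chosen after their values were seen. Of 4 epithelial markers 4 were called higher, and of 5 microglial markers 2 were, against the same 28.6% of all tested genes.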
